A study of Mus musculus with 10 samples.

Results

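The genes described here drive the passage from G1 into S phase: the D-type cyclins Ccnd1, Ccnd2 and Ccnd3 with their kinases Cdk4 and Cdk6, the E-type cyclins Ccne1 and Ccne2 and the A-type cyclin Ccna2 with their kinase Cdk2, and the inhibitor Cdkn1b (p27). These 10 genes, of 23553 in the files, were chosen by name, and all 10 were found. RNA came from Neuro-2a, a mouse neuroblastoma line, after reverse transfection with RNAiMAX of an siRNA against Sfpq, a nuclear RNA- and DNA-binding protein, or a control siRNA whose target, luciferase (Luc), has no mouse gene. Every library, control or not, came from cells expanded with 10% fetal calf serum and transfected in differentiation medium with 2% serum, and the labels give every sample the strain entry C57BL/6+C57BL/6J+CBA. No time after transfection is given in the sources used here. There were 6 poly(A) libraries, 3 Luc and 3 Sfpq, and a single pair of rRNA-depleted libraries (1 Luc, 1 Sfpq). RNA polymerase II chromatin immunoprecipitation is listed with 1 library per group and is not analysed here. The line is 1 transformed cell population, and no label tells whether replicates are separate cultures; the p-values then reflect only how these libraries spread, which may be technical.

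In dividing cells, growth signals raise D-type cyclins, which activate Cdk4 and Cdk6 to phosphorylate the retinoblastoma protein Rb1 and its relatives, the pocket proteins. This releases E2F transcription factors, which switch on E-type cyclins, A-type cyclin and the genes of DNA replication, and Cdk2 bound to these cyclins then starts and sustains S phase. Cdkn1b binds cyclin-Cdk2 complexes and restrains them, and its protein is removed by the ubiquitin ligase subunit Skp2 with its cofactor Cks1b. When neuroblastoma cells move towards a neuron-like state in low serum, they tend to leave this cycle. The values here are of RNA and say nothing of protein or of kinase activity.

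The knockdown was visible in the target: Sfpq had 56.8, 60.8 and 73.0 RPKM (read density per transcript length, relative to all mapped reads) in the Luc and 3.98, 4.75 and 6.47 in the Sfpq poly(A) libraries. Low values often differed between libraries by ratios of small whole numbers, which gave relative poly(A) depths. Such ratios matched between 48.9% (Luc replicate 3) and 57.5% (Sfpq replicate 1) of low values set against Luc replicate 1. At the median of the factors tried, 0.343% and 0.252% matched in these libraries. Depths ran from 0.629 (Sfpq replicate 1) to 1.27 (Luc replicate 3) times that of Luc replicate 1, and the absolute depth is unknown. Luc replicate 3 stood apart from the other Luc libraries (r = 0.995 and 0.993 of log2 values over every RefSeq row, against 0.998 between those). Test results that turn on it are given with and without it, but levels and ratios between genes only with it. The neuroblastoma marker list summed to between 261 and 310 RPKM over its 10 genes in Luc and between 262 and 287 in Sfpq poly(A) libraries, but its members moved in opposite directions: 5 fell, 3 rose and 2 did not pass. Its most abundant gene was Hand2 in each Luc and Chga in each Sfpq library, and in rRNA-depleted RNA the sum was 217.1 RPKM (Luc) and 140.9 RPKM (Sfpq). The fibroblast, leukocyte, glial and epithelial lists each stayed under 2 RPKM in sum in each library, with the oligodendrocyte genes Mog and Mag listed at 0 in all 8. The sympathetic lineage factor Hand2 fell by 0.72 on the log2 scale and Chga, a protein of secretory granules, rose by 0.75; the part of these marker changes in the results below was not tested.

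Of the 10 genes, 8 averaged 0.5 RPKM or more in poly(A) RNA and were tested. Ccnd3, Cdk2 and Cdk4 rose in the Sfpq libraries and Ccnd1 and Ccna2 fell, while Ccne1, Ccne2 and Cdkn1b did not pass (limma on log2(RPKM + 0.5), Benjamini-Hochberg adjusted p under 0.05 over 11727 genes). Of all tested genes, 21.3% rose and 18.6% fell, so that 40.0% were called in either direction. The counts of 3 higher and 2 lower among 8 therefore lie near the background, and what follows is about the individual genes. The 8 genes had a median log2 difference of 0.0031, against 0.053 over all tested genes. The Sfpq libraries lay wholly above the Luc libraries for 3 of the genes (28.2% of all tested genes) and wholly below for 3 (24.7%), or 52.9% of all tested genes for both directions.

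**Figure D1:**
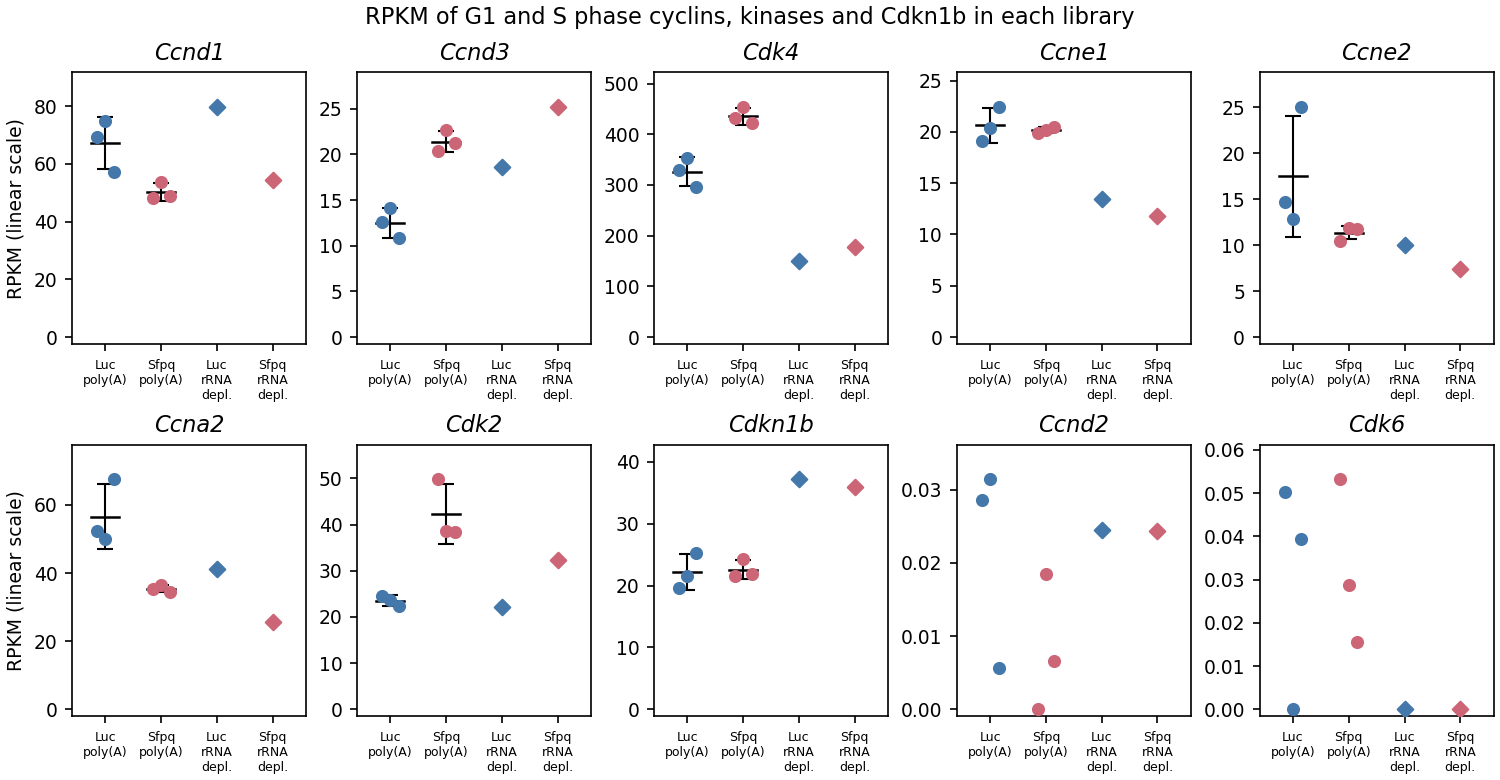
RPKM on linear axes for each of the 10 genes in each library: circles are poly(A) libraries (3 Luc, blue; 3 Sfpq, red), diamonds the single rRNA-depleted libraries, and black lines the mean ± SD of 3 libraries (not drawn for Ccnd2 and Cdk6, which lie at or near 0). Ccnd3, Cdk2 and Cdk4 are higher, and Ccnd1, Ccne2 and Ccna2 lower, in all 3 Sfpq than in all 3 Luc poly(A) libraries.

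By level, Cdk4 stood far above the rest, with a Luc mean of 326 ± 28.4 RPKM (SD, n = 3), rank 191 of 11727 tested genes. Ccnd1 (67.1 ± 9.04 RPKM, SD, n = 3) and Ccna2 (56.6 ± 9.61) followed, and their Luc libraries overlapped. Cdk2 (23.5 ± 1.12), Cdkn1b (22.1 ± 2.92), Ccne1 (20.6 ± 1.69) and Ccne2 (17.5 ± 6.60) formed a group whose Luc libraries overlapped, and Ccnd3 (12.5 ± 1.65) overlapped only Ccne2 of these. RPKM is scaled to length, so these levels may be set side by side within a preparation, but they depended on the preparation. Cdkn1b over Cdk2 was 0.946 ± 0.172 (SD, n = 3) in poly(A) Luc libraries and 1.67 in the rRNA-depleted Luc library. In the Sfpq libraries Cdk2 (42.3 ± 6.51 RPKM, SD, n = 3) stood above Ccna2 (35.4 ± 1.02), the reverse of the order in Luc libraries, and Ccnd3 (21.4 ± 1.12) overlapped Ccne1 (20.2 ± 0.260).

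Among D-type cyclins, the sensors of growth signals, Ccnd1 had 69.4, 74.8 and 57.1 RPKM in Luc and 48.0, 53.7 and 48.8 in Sfpq poly(A) libraries. The groups did not overlap, but Luc replicate 3 lay close to the highest Sfpq library. Ccnd1 thus fell to 74.8% of its Luc mean, by 0.41 on the log2(RPKM + 0.5) scale (SE 0.12, 95% interval -0.68 to -0.14; limma adjusted p = 0.0228). This call was lost in limma with quantile normalization (adjusted p = 0.0603) and without either Luc replicate 1 (0.0820) or 2 (0.0657) or Sfpq replicate 1 (0.0767) or 3 (0.0865), with a log2 difference of -0.33 at the smallest. Without Luc replicate 3 it was -0.52.

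Ccnd3, by contrast, had 12.6, 14.2 and 10.9 RPKM in Luc and 20.4, 22.6 and 21.2 in Sfpq poly(A) libraries. Every Sfpq library stood well above every Luc library, and Ccnd3 rose 1.71-fold (log2 difference 0.76, SE 0.12; limma adjusted p = 0.00104). It passed under all 15 alternatives run, with log2 differences between 0.66 and 0.85. Ccnd3 has 3 RefSeq rows, and the other rows, NM_001081635 and NM_001081636, gave ratios of 1.76 and 1.75 of the group means, close to that of NM_007632, the row used (1.71).

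Ccnd2, the third D-type cyclin, was all but absent: 0.0286, 0.0314 and 0.0056 RPKM in Luc and 0, 0.0184 and 0.0067 in Sfpq poly(A) libraries. Multiplied by the relative depths, these values were 4, 5, 1, 0, 3 and 1 times the smallest of them that was not 0, to within 0.01, as whole reads would be. No fold is given at this level. Both rRNA-depleted libraries were as low, with 0.0244 (Luc) and 0.0243 (Sfpq) RPKM.

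As Ccnd1 and Ccnd3 moved in opposite directions, the make-up of D-type cyclin RNA separated the groups of poly(A) libraries. Its amount overlapped between the groups, through Luc replicate 3 alone. Ccnd1 held 84.6%, 84.1% and 84.0% of the summed D-type cyclin RPKM in Luc and 70.2%, 70.4% and 69.7% in Sfpq poly(A) libraries. The spread within a group was 0.339 percentage points (SD, n = 3) in each, against a difference of -14.2 points, which ranged from -14.3 to -14.0 with each library left out in turn. The two-sided exact permutation test gave p = 0.1, the smallest that 3 against 3 libraries allow. Ccnd1 exceeded Ccnd3 by a factor of 5.36 ± 0.142 (SD, n = 3) after Luc siRNA but 2.34 ± 0.0381 after Sfpq siRNA. The sum itself was 82.0, 89.0 and 68.0 RPKM in Luc and 68.4, 76.4 and 70.0 in Sfpq libraries. The groups thus overlapped (difference of mean log2 sums -0.15, two-sided exact permutation p = 0.4). Luc replicate 3 lay below all Sfpq libraries, whereas the other Luc libraries lay above all of them. Without Luc replicate 3 the difference of mean log2 sums was -0.26. Without poly(A) selection the Ccnd1 share was 81.1% after Luc and 68.3% after Sfpq siRNA, a gap like that in poly(A) RNA but with no replicate. The sum there was also lower, at 98.4 RPKM after Luc and 79.6 RPKM after Sfpq siRNA.

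**Figure D2:**
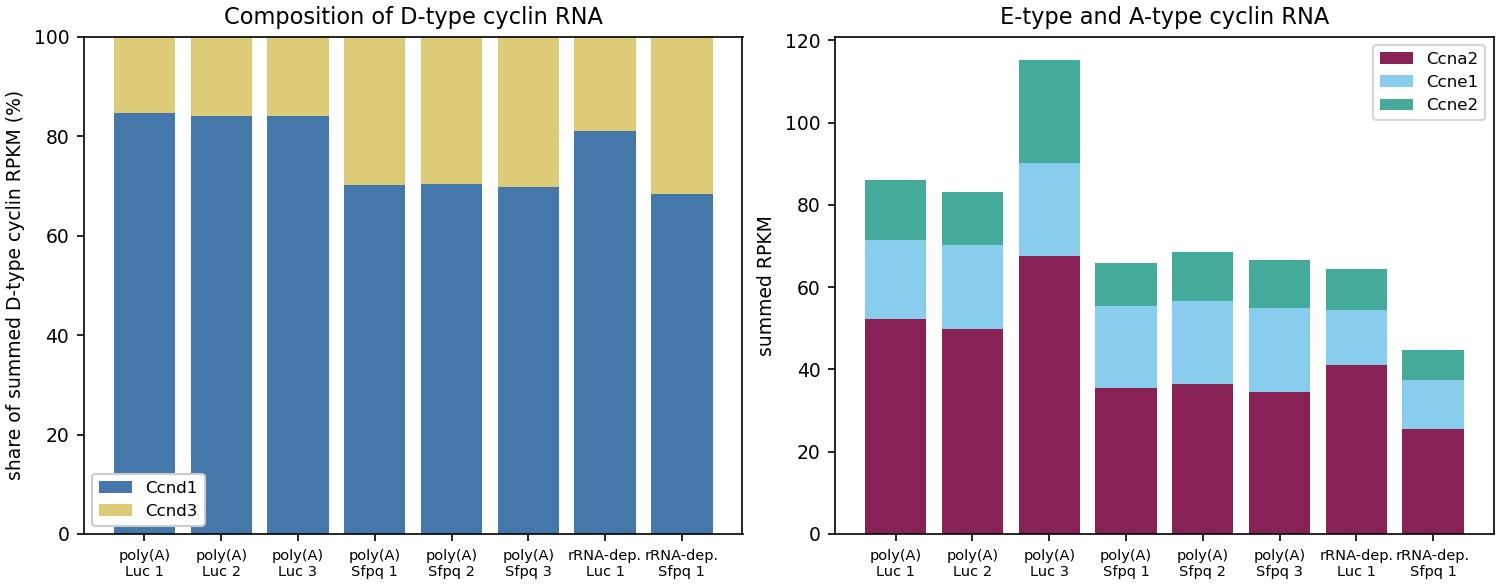
Left, share (%) of Ccnd1 and Ccnd3 in the summed RPKM of D-type cyclins in each library (Ccnd2 is too low to show); right, summed RPKM of Ccna2, Ccne1 and Ccne2. The Ccnd1 share is 84.0% to 84.6% in Luc and 69.7% to 70.4% in Sfpq poly(A) libraries, and the E-type and A-type sum is highest in Luc replicate 3, at 115 RPKM.

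Cdk4, the kinase of D-type cyclins, had 329.7, 352.4 and 295.9 RPKM in Luc and 431.7, 454.3 and 421.6 in Sfpq poly(A) libraries. The groups did not overlap, and Cdk4 rose 1.34-fold (log2 difference 0.42, SE 0.10; limma adjusted p = 0.00978). The call was lost without Sfpq replicate 2 (0.39, limma adjusted p = 0.0557). Per unit of summed D-type cyclin, Cdk4 was 4.02, 3.96 and 4.35 in Luc and 6.31, 5.95 and 6.02 in Sfpq libraries. The groups did not overlap, as for Cdk4 alone, so this ratio is not a separate result.

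Cdk6, the alternative kinase of D-type cyclins, was all but absent, at 0.0502, 0 and 0.0393 RPKM in Luc and 0.0532, 0.0287 and 0.0155 in Sfpq poly(A) libraries. These were 3, 0, 3, 2, 2 and 1 times the smallest step, to within 0.01. It was listed at 0 in both rRNA-depleted libraries. Of D-type cyclin partners, then, only Cdk4 was measured above the level of a few reads in these libraries.

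Cdk2, the kinase of E-type and A-type cyclins, had 24.6, 23.7 and 22.3 RPKM in Luc and 49.9, 38.7 and 38.5 in Sfpq poly(A) libraries. Sfpq replicate 1, the shallowest library, was the highest, and all 3 lay above every Luc library. Cdk2 rose 1.80-fold (log2 difference 0.82, SE 0.12; limma adjusted p = 0.000768), and passed under all 15 alternatives; without Sfpq replicate 1 the log2 difference was 0.70. Its other RefSeq row, NM_183417, gave a ratio of 1.78.

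The promoters of the 2 kinases that rose are shown because Cdk4 is a textbook target of Myc, which binds E-boxes, and E2F factors are the switch of this pathway. RefSeq's GRCm38.p6 table gave windows of 250 bases before to 50 after the start for 6 of the 10 genes (Ccnd3 with 2 starts, Ccne1, Cdk2, Cdk4, Cdk6 and Cdkn1b), and none for Ccnd1, Ccnd2, Ccne2 and Ccna2. Capitals mark the E-box CACGTG and the E2F-type motifs TTCCCGC and TTGGCGC on either strand. The Cdk2 window is chr10:128705002-128705301 on the minus strand, and the Cdk4 window chr10:127063285-127063584 on the plus strand, both 5′ to 3′.
Cdk2: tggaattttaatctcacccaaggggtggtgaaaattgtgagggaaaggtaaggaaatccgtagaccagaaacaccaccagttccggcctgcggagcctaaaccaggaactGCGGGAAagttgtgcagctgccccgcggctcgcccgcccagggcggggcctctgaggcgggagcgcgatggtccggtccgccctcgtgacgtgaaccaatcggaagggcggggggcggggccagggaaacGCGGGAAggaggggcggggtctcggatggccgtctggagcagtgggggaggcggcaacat
Cdk4: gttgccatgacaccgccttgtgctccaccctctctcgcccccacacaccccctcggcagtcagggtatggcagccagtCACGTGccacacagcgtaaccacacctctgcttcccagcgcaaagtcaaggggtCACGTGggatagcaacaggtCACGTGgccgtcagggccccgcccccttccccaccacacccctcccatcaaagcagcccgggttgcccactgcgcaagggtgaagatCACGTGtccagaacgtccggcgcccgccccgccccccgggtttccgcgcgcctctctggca
The Cdk4 window held 4 E-boxes, whose first bases lie at -172, -118, -98 and -11 from the start, and 0 E2F-type motifs. The Cdk2 window held 2 matches of TTCCCGC, both on the other strand as GCGGGAA, at -140 and -10, and 0 E-boxes. The Cdk6 window held 1 E-box; the other 4 windows, 2 of them of Ccnd3, held none of the 3 motifs. Of 32851 windows of this length in the table, 7.15% held CACGTG, 4.60% TTCCCGC and 2.45% TTGGCGC. The CCAAT letters, present in 37.4% of windows, occurred in those of Cdk2, Cdkn1b and the second Ccnd3 start, and GGGCGG, present in 35.7% and overlapping none of the capitals, in all but that of Cdk6. A match is a description of letters and not evidence of binding. The Myc-family gene Mycn, of the neuroblastoma marker list, fell in the poly(A) libraries while Cdk4 rose. It fell to 34.6% of its Luc mean (log2 difference -1.38; limma adjusted p = 7.97e-05). In the rRNA-depleted pair its log2 ratio was -1.50. Other genes of the Myc family are not given here, and a role of Myc proteins in the rise of Cdk4 was not tested.

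Among the cyclins that work with Cdk2, Ccna2, which acts through S phase and into G2, had 52.3, 49.9 and 67.6 RPKM in Luc and 35.4, 36.5 and 34.4 in Sfpq poly(A) libraries. The Sfpq libraries were tightly grouped below all Luc libraries, of which Luc replicate 3 was the highest. Ccna2 fell to 62.6% of its Luc mean, by 0.66 on the log2 scale (SE 0.13; limma adjusted p = 0.00303), and passed under all 15 alternatives, with -0.52 without Luc replicate 3.

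Ccne2 had 14.6, 12.8 and 25.04 RPKM in Luc and 10.5, 11.8 and 11.8 in Sfpq poly(A) libraries. All Sfpq libraries lay below all Luc libraries, yet the difference did not pass (log2 difference -0.54, SE 0.21; limma adjusted p = 0.0691), with Luc replicate 3 well above the other Luc libraries. Without that library the log2 difference was -0.26 and passed (limma adjusted p = 0.0430). It also passed without Luc replicate 2 (-0.73; limma adjusted p = 0.0183), with median-ratio scaling (-0.58; 0.0423) and with quantile normalization (-0.57; 0.0431). Ccne2 has 3 RefSeq rows, whose ratios of group means lay between 0.642 and 0.650.

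Ccne1, the other E-type cyclin, had 19.1, 20.3 and 22.5 RPKM in Luc and 19.9, 20.2 and 20.5 in Sfpq poly(A) libraries. The Sfpq values fell inside the range of the Luc values, and the log2 difference of -0.03 had a 95% interval of -0.25 to 0.20 (limma adjusted p = 0.852). Together, Ccne1, Ccne2 and Ccna2 summed to 86.1, 83.0 and 115 RPKM in Luc and 65.8, 68.5 and 66.7 in Sfpq libraries. Cdk2 RNA per unit of this sum was 0.285, 0.286 and 0.194 in Luc and 0.758, 0.565 and 0.577 in Sfpq libraries, a ratio 2.48 times as high on average. That average includes Luc replicate 3, which had the highest sum and the lowest ratio. The ratio joins genes already described and is not a separate result.

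Cdkn1b, the inhibitor, had 19.6, 21.5 and 25.3 RPKM in Luc and 21.5, 24.4 and 21.8 in Sfpq poly(A) libraries. The groups overlapped fully, and the log2 difference was 0.03 with a 95% interval of -0.24 to 0.30 (limma adjusted p = 0.847). Its RNA per unit of Cdk2 RNA was 0.798, 0.906 and 1.13 in Luc and 0.432, 0.630 and 0.567 in Sfpq libraries. The groups did not overlap, as for Cdk2 alone, so this ratio restates the rise of Cdk2 and is not a separate result.

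**Figure D3:**
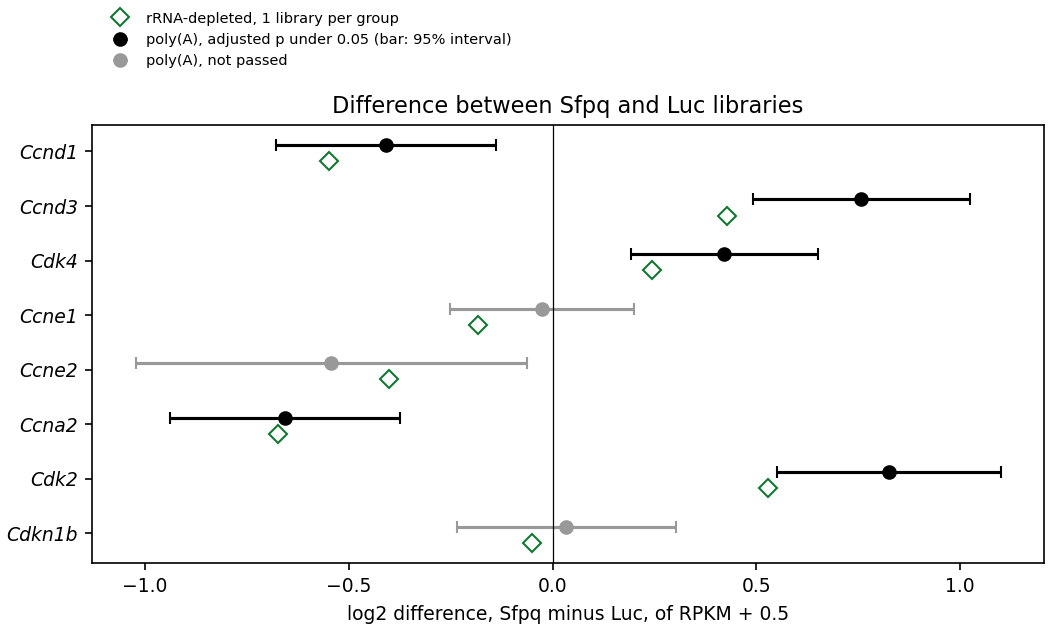
Log2 difference of RPKM + 0.5, Sfpq minus Luc, for the 8 tested genes: circles with 95% intervals are from limma on 3 against 3 poly(A) libraries (black where the adjusted p is under 0.05), and open diamonds are the single rRNA-depleted pair. The diamonds of the 5 genes that passed lie on the same side of 0 as their circles; those of Ccnd3, Cdk4 and Cdk2 lie closer to 0.

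In rRNA-depleted RNA, which also holds transcripts without a poly(A) tail, 1 library per group allows values but no test. Cdk2 had 22.2 RPKM with Luc and 32.3 with Sfpq siRNA (log2 ratio 0.53), Ccnd3 18.6 and 25.2 (0.43), and Cdk4 149.5 and 177.1 (0.24). Ccna2 had 41.1 and 25.6 RPKM (-0.67), Ccnd1 79.7 and 54.3 (-0.55), Ccne2 9.96 and 7.42 (-0.40), Ccne1 13.4 and 11.8 (-0.18), and Cdkn1b 37.2 and 35.9 (-0.05). The 5 genes that passed in poly(A) RNA had the same sign here, and the share of all called genes that did so is not given. In all, 3 ratios were above 0, as for 48.3% of all genes, and 5 below, as for 51.7%. Past a 1.5-fold limit lay 1 of the 8 genes on the low side (Ccna2), where 13.3% of the 11386 genes averaging 0.5 RPKM or more lay, and 0 on the high side, against 7.86%. Set beside the poly(A) Luc mean, the rRNA-depleted Luc value of Cdk4 was 0.459 times and that of Cdkn1b 1.68 times as high. The preparations were normalized separately, so these ratios are relative to different totals. A total scales all genes of a library alike, and what sets Cdk4 and Cdkn1b apart was not tested.

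Some of these genes overlap another gene in the GRCm38.p6 gene table, and since no use of strand is recorded in the sources used here, reads of overlapping genes may not be told apart. LTO1, which overlaps Ccnd1, rose while Ccnd1 fell (9.79 ± 1.40 to 17.96 ± 2.37 RPKM, SD, n = 3; limma adjusted p = 0.00136). Bysl, a ribosome-assembly gene that overlaps Ccnd3, fell while Ccnd3 rose (18.7 ± 2.27 to 10.05 ± 0.940; limma adjusted p = 0.000672). Tspan31, which overlaps Cdk4, did not pass, with 61.6 ± 6.00 (Luc) and 55.8 ± 2.92 RPKM (Sfpq; SD, n = 3; limma adjusted p = 0.323). Exosc9, which overlaps Ccna2, and Ints8, which overlaps Ccne2, did not pass either (limma adjusted p = 0.963 and 0.519), and Pmel, which overlaps Cdk2, stayed under 0.5 RPKM in each library. LTO1 and Bysl, the overlapping partners that were called, thus moved against the cyclins they overlap. The noncoding genes Gm41590, which overlaps Ccnd3, and A630034I12Rik, which overlaps Ccne2, have no values here. Whether shared reads had a part in any of these differences was not tested.

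The wider pathway was followed in 6 gene lists, whose counts are to be read against the 21.3% of all tested genes that rose and the 18.6% that fell. Of the other CDK inhibitors, 4 of 6 were tested. Cdkn1a (p21), the p53-induced inhibitor of Cdk2, fell from 74.7 ± 9.66 to 30.2 ± 1.43 RPKM (SD, n = 3; log2 difference -1.28, SE 0.12; limma adjusted p = 4.21e-05), with a log2 ratio of -1.60 in rRNA-depleted RNA. Cdkn2c (p18), an inhibitor of Cdk4 and Cdk6, rose by 0.43 on the log2 scale, its mean moving from 5.33 ± 0.268 to 7.37 ± 0.543 RPKM (SD, n = 3; adjusted p = 0.0117 in limma); this call was lost without Luc replicate 1 (0.40) or Sfpq replicate 3 (0.41). Cdkn2a, whose locus makes p16 and p19 from shared exons, had 67.0 ± 20.4 and 68.9 ± 1.42 RPKM (SD, n = 3; limma adjusted p = 0.751) and Cdkn2d 12.04 ± 1.67 and 10.96 ± 0.574. Cdkn2b was listed at 0 in each library and Cdkn1c stayed under 0.2 RPKM. Without Luc replicate 3, 3 of the 4 fell, and calls over all genes rose too, to 3621 higher and 2645 lower of 11730.

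Of 18 pocket protein and E2F genes, 3 rose, 2 fell and 13 did not pass, with a median of 0.12. The shares were 16.7% higher and 11.1% lower, beside 21.3% and 18.6% of all tested genes. The pocket protein gene Rbl1 (p107) rose from 4.43 ± 0.713 to 11.3 ± 0.246 RPKM (SD, n = 3; log2 difference 1.26, SE 0.13; limma adjusted p = 7.93e-05), and E2f7, an E2F that represses, rose from 3.88 ± 0.225 to 8.82 ± 0.974 (1.09). The activating factor E2f1 also passed (0.39, limma adjusted p = 0.0249), but not without Sfpq replicate 1 (0.0725), 2 (0.0754) or 3 (0.0844) or with median-ratio scaling (0.0594). Tfdp1 and Tfdp2, which pair with E2F proteins to bind DNA, fell by 0.56 and 0.47 on the log2 scale, the latter call being lost without Sfpq replicate 1 (-0.42) or Sfpq replicate 3 (-0.46). Rb1 itself did not pass, at 2.89 ± 0.841 (Luc) and 3.03 ± 0.214 RPKM (Sfpq; SD, n = 3). Without Luc replicate 3, 7 of these genes rose, where 3621 of 11730 genes did so against 2502 of 11727 with it. The share of the list that rose was then above that of all genes, whereas with Luc replicate 3 it was below.

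Of 19 genes for activation and turnover of cyclin-CDK complexes, 3 rose, 1 fell and 15 did not pass, with a median of 0.0069. The shares were 15.8% higher and 5.26% lower, beside 21.3% and 18.6% of all tested genes. Skp2 rose from 19.2 ± 1.13 to 37.4 ± 1.61 RPKM (SD, n = 3; log2 difference 0.95, SE 0.10; limma adjusted p = 8.93e-05) and its cofactor Cks1b by 0.43 on the log2 scale, in the same libraries where Cdkn1b RNA did not pass. Mnat1, a subunit of the CDK-activating kinase, rose by 0.52, whereas Cdk7 and Ccnh, the other subunits, had log2 differences of -0.22 and -0.27 that did not pass. Cks2 fell by 0.59 on the log2 scale; its call was lost with no filter on low values and without Sfpq replicate 1 (-0.55) or Sfpq replicate 2 (-0.55). Without Luc replicate 3, when calls increased over all genes (3621 higher and 2645 lower of 11730), 8 of these genes rose and 3 fell. The share of the list that rose was then above that of all genes, whereas with Luc replicate 3 it was below. Without Sfpq replicate 1 or 2, 0 fell.

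Of 22 S phase genes regulated by E2F, 11 rose, 0 fell and 11 did not pass (limma; 16 higher and 0 lower at unadjusted p under 0.05), with a median of 0.33 against 0.053 over all tested genes. Of all 11727 tested genes, 21.3% rose and 18.6% fell, and 3157 were higher and 2617 lower at unadjusted p under 0.05. The replication helicase subunits Mcm3 (log2 difference 1.08) and Mcm7 (0.58) and the ribonucleotide reductase subunit Rrm2 (48.6 ± 4.05 to 75.5 ± 1.08 RPKM, SD, n = 3; 0.63) had the largest rises. The Sfpq libraries lay wholly above the Luc libraries for 17 of the 22, where 28.2% of all tested genes did so. Against this list, Ccna2 fell and Ccne1 did not pass, although E-type and A-type cyclins are themselves classed as E2F targets. In rRNA-depleted RNA all 22 ratios were above 0, with 48.3% of all genes above 0.

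Of 11 tested genes among G2 and M phase cyclins and kinases, 5 rose, 0 fell and 6 did not pass (limma; 8 higher and 0 lower at unadjusted p under 0.05), where 21.3% of all tested genes rose and 18.6% fell. Nek2 (0.70), Bub1 (0.67) and Aurkb (0.41) led the genes that passed, with Bub1b (also 0.41) next, and the mitotic cyclin Ccnb1 (145 ± 13.0 and 149 ± 4.63 RPKM, SD, n = 3) and its kinase Cdk1 (70.1 ± 0.443 and 73.9 ± 5.74) did not pass. The count was 2 without Luc replicate 1 or Sfpq replicate 2 and 3 without Luc replicate 2 or Sfpq replicate 3, and the Bub1 call was lost in limma with no filter (adjusted p = 0.0596) and without Luc replicate 1 (0.0707) or 2 (0.0531) or Sfpq replicate 1 (0.0822) or 2 (0.0627). Of 23 tested other cyclins and CDKs, 11 rose (47.8%), 1 fell (4.35%) and 11 did not pass, beside 21.3% and 18.6% of all tested genes, with a median of 0.28. Cdk19 (1.74 ± 0.442 to 5.60 ± 0.634 RPKM, SD, n = 3; 1.46) and Cdk8 (0.89), paralogous kinases of the Mediator complex, and Ccng2 (1.02), a cyclin linked to cell cycle arrest, rose most, and Cdk17 fell by 0.47 on the log2 scale, a call lost without Sfpq replicate 3 (-0.40). The count of rises was 7 without Sfpq replicate 2 or 3.

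**Figure D4:**
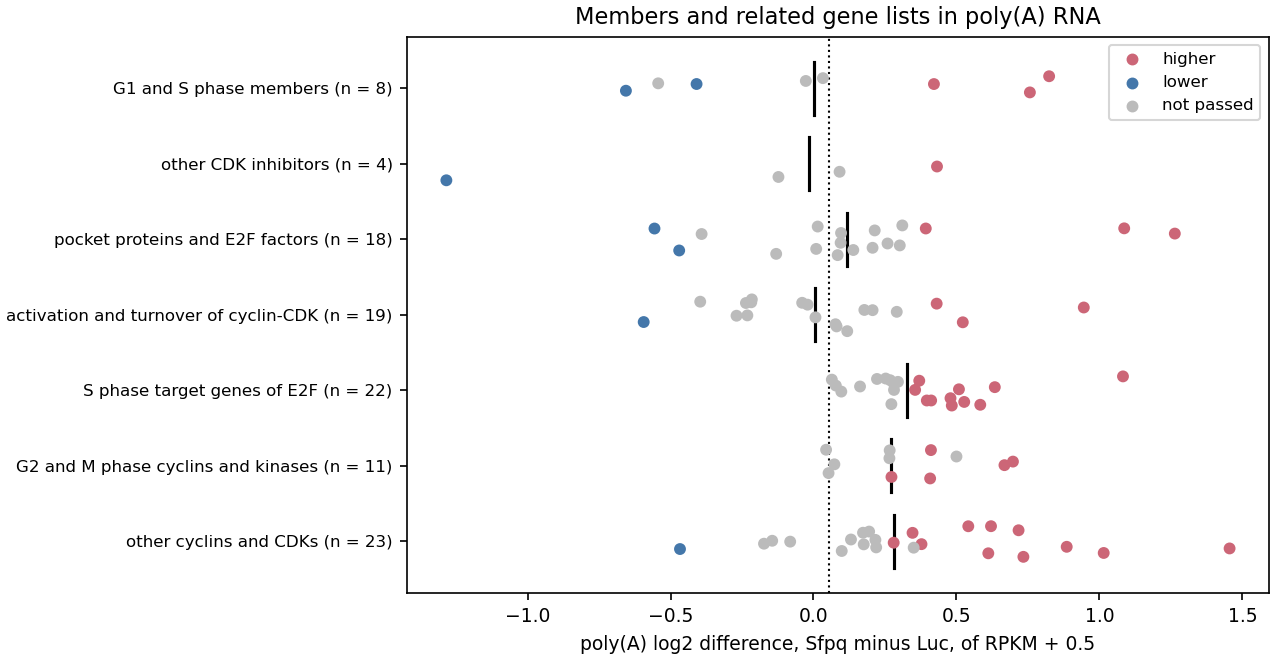
Poly(A) log2 difference of RPKM + 0.5, Sfpq minus Luc, for each tested gene of the G1 and S phase set and 6 related lists (points; red higher, blue lower, grey not passed at a limma adjusted p under 0.05); black bars are list medians and the dotted line the median of all 11727 tested genes, 0.053. The G1 and S phase genes spread to both sides, and the 22 S phase E2F targets all lie to the right of 0.

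Likeness of profile was measured by Pearson's r of log2(RPKM + 0.5) over the 6 poly(A) libraries, among the 7814 genes averaging 5 RPKM or more. Closest to Ccnd1 were Ndufb9 (r = 0.995), Nfkbib (0.995) and Cltb (0.993), and closest to Cdk4 were Tpcn1 (0.998), Col4a1 (0.997) and 1110038F14Rik (0.997). For Cdkn1b they were Cdc26 (0.997), Pcyt1a (0.974) and Tom1l1 (0.970). All points share the same 6 libraries and, for Ccnd1 and Cdk4, the difference between the groups. An r of 0.99 or more was reached by 41 genes with Cdk4, 6 with Ccnd1 and 1 with Cdkn1b. Within the set, Ccnd3 and Cdk4 were most alike (r = 0.99), and Ccna2 ran against both (-0.98 and -0.97). Ccnd3, Cdk4 and Ccna2 were each called between the groups, so these values too share that difference.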

How the data were processed

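Poly(A) and rRNA-depleted RNA of Neuro-2a cells was sequenced on an Ion Proton, per the labels' protocols. The authors deposited 1 table of RPKM values per library, per the file headers, with RefSeq rows; the submitters' processing notes name TopHat2 2.0.10 and mm9, and the counting step is not given in the sources used here. These values are relative to each library's own total, and without counts no interval for counting error can be given. Groups and replicate numbers were taken from sample titles; the description of Sfpq replicate 2 carries another replicate number. Of 30978 rows, 30507 were given a symbol, and the row with the highest mean stood for each gene. Poly(A) values were tested with limma 3.58.1 (R 4.3.3) on log2(RPKM + 0.5) (empirical Bayes, trend on), over the 11727 genes averaging 0.5 RPKM or more, with Benjamini-Hochberg adjustment over all of them; the code was tested on simulated data. The low values of Ccnd2 and Cdk6 stayed untested. Permutation tests were exact (scipy 1.17.1). The rRNA-depleted pair gave ratios only. The members and lists were chosen with earlier results of these data known, and ratios between members other than the Ccnd1 share were chosen after their values were seen. Named were all members and, from each list, the 3 called genes with the largest change in each direction; other genes named from the lists, and the overlapping genes, were chosen after their values were seen. Profiles were compared for the most abundant cyclin and kinase and for Cdkn1b, with 3 genes each. Alternatives changed the pseudocount (0.1, 1), the filter (none, 2 RPKM), the scaling, the trend, the choice of row, a replicate block and each library in turn. 1 marker gene is not reported here.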

Additional observations from a re-analysis of the deposited data

How the results depend on the processing

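Ccnd3, Ccna2 and Cdk2 kept their direction and stayed past the threshold under all 15 alternatives, and Ccnd1 and Cdk4 kept their direction. With each library left out in turn, genes called higher ranged from 1546 (without Sfpq replicate 2) to 3621 (without Luc replicate 3) and lower from 1673 to 2645, of the 8 members 2 to 3 rose and 1 to 3 fell, the Ccnd1 share differed by -14.3 to -14.0 points and the summed D-type cyclins by -0.26 to -0.06. In the lists, in the same way, CDK inhibitors had 0 to 1 higher and 1 to 3 lower, pocket proteins and E2F factors 2 to 7 and 1 to 2, activation and turnover 3 to 8 and 0 to 3, S phase targets 8 to 15 and 0 to 0, G2 and M phase genes 2 to 7 and 0 to 0, and other cyclins and CDKs 7 to 13 and 0 to 1. Lower calls in activation and turnover were 2 with median-ratio scaling and 0 with no filter; in pocket proteins and E2F factors 1 with a minimum of 2 RPKM; and in other cyclins and CDKs 2 with no filter. The direction of Ccne1 turned without Luc replicate 3 (0.034; range -0.079 to 0.034), and that of Cdkn1b with median-ratio scaling (-0.0031) and without Luc replicate 1 (-0.049) or Sfpq replicate 2 (-0.02; range -0.049 to 0.13); neither passed in the main test, and the cause was not tested. Same-numbered libraries deviated together with r = 0.33, -0.04 and 0.16, so the numbers do not pair all libraries; with a replicate block 2681 genes rose and 2309 fell, Ccne2 passed (-0.54, limma adjusted p = 0.0259), and 2 genes of activation and turnover fell. The absolute depth is unknown, and for Ccnd2 and Cdk6, at a few reads, no difference was detectable at this depth.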

Other observations

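Beyond the cell cycle lists, the genes beside these loci also varied. Fgf15, a growth factor gene next to Ccnd1, had 1.26, 1.37 and 1.13 RPKM in Luc and 0.509, 0.235 and 0.340 in Sfpq poly(A) libraries, and 1.01 and 0.371 in the rRNA-depleted pair. Rab5b, a GTPase gene of early endosomes next to Cdk2, had 17.5, 16.5 and 18.3 RPKM in Luc and 10.63, 11.04 and 10.98 in Sfpq poly(A) libraries, and Dgka, a diacylglycerol kinase gene on the other side, 3.58, 4.78 and 3.86 against 6.19, 7.21 and 7.49. The groups did not overlap for these 3 genes, as for 52.9% of all tested genes. They were picked after their values were seen, from the nearest genes on either side in the GRCm38.p6 gene table.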
